A study of Homo sapiens with 10 samples.

Results

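The 50 genes described here encode proteins that carry a cell through G2 and mitosis: mitotic kinases and cyclins, and proteins of the kinetochore, the spindle and cytokinesis. They were chosen by name from these roles by a rule that uses no measured value, although earlier results of these data were known when it was set, out of 60448 genes in the count table, and all 50 were found there by their Ensembl identifiers and among the 16310 genes with enough counts to test. The study compared untreated EA.hy926 cells with untreated HMEC-1 cells, 2 human endothelial cell lines labelled wild type, in 5 biological replicates each, by sequencing of poly(A) RNA from flasks grown to a confluent monolayer. EA.hy926 arose by fusing umbilical vein endothelial cells with A549 lung carcinoma cells. HMEC-1 came from dermal microvessels and was immortalized with the SV40 large T antigen. EA.hy926 was kept in Advanced DMEM with 5% FBS, and HMEC-1 in MCDB 131 medium with 10% FBS, hydrocortisone at 1 µg/mL and epidermal growth factor at 10 ng/mL. In stained monolayers the study described EA.hy926 as uniform with contact inhibition and HMEC-1 as denser and overgrown. It reported similar doubling times for both. The cell line, its medium and its growth state at confluence therefore cannot be told apart in any comparison below. Fewer cells in mitosis and less RNA per mitotic cell cannot be told apart either, since the RNA came from all cells of a flask together. Each group is a single line, so p-values set the difference between the lines against the spread between cultures of each line.

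Entry into mitosis is driven by CDK1 bound to cyclins A and B, helped by the polo and Aurora kinases. The kinetochore joins each centromere to spindle microtubules, and the spindle assembly checkpoint holds back the anaphase-promoting complex until every chromosome is attached. That complex then marks cyclin B and securin for destruction, separase cuts cohesin, and the midzone and contractile ring divide the cell. Transcripts of these genes are known to accumulate together late in the cell cycle, under promoters that often hold a CCAAT box, bound by NF-Y, and a cell cycle genes homology region (CHR), bound by the DREAM and MYB-MuvB complexes. In confluent endothelium most cells have left the cycle, whereas immortalized lines keep a dividing share.

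Promoters of 5 members are printed to show these letters beside the size of the difference between the lines: those with the lowest and the highest log2 fold change among members with a listed promoter (MYBL2 and ESPL1), and SPC25, CCNB2 and PLK1 between them. SPC25, CCNB2 and PLK1 were chosen because they hold both CCAAT and the CHR letters. Each holds 300 bases, from 250 before to 50 after the first start that RefSeq lists on GRCh38.p14, and is written 5′ to 3′ on the strand of the gene. The windows lie at chr20:43666864-43667163 for MYBL2, chr15:59104896-59105195 for CCNB2, chr16:23678639-23678938 for PLK1 and chr12:53268049-53268348 for ESPL1, all on the plus strand, and at chr2:168890381-168890680 for SPC25 on the minus strand. Capitals mark CCAAT or its reverse complement ATTGG, and TTTGAA, the CHR letters.
MYBL2: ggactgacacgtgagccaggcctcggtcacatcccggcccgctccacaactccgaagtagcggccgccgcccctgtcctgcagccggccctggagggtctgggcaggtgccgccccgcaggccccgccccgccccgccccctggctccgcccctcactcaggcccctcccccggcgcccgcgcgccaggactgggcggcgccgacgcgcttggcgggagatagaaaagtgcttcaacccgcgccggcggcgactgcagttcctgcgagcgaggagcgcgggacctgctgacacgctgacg
SPC25: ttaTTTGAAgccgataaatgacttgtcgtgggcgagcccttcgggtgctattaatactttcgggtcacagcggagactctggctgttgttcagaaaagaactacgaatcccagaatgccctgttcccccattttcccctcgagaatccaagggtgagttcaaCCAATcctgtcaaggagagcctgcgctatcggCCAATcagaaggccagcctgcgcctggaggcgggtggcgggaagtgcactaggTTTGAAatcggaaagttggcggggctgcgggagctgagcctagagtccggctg
CCNB2: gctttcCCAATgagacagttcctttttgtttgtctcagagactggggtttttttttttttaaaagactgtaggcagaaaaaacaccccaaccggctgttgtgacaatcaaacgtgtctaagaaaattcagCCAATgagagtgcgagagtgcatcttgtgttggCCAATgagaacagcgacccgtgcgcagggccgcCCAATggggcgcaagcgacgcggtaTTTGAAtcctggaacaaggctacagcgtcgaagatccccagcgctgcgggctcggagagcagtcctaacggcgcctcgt
PLK1: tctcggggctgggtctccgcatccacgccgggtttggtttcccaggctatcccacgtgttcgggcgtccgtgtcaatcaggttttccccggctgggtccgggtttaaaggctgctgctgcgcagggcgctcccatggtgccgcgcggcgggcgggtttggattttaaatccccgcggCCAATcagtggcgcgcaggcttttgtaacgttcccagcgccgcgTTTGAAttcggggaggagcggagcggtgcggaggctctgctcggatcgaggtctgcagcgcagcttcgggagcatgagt
ESPL1: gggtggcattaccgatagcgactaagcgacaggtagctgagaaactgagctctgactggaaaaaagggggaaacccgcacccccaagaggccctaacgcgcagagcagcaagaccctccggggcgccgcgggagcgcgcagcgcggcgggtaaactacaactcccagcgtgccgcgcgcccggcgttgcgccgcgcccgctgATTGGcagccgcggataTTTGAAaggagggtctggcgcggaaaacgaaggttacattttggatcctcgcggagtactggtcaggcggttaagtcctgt
CCNB2 held CCAAT 4 times, with first letters at -244, -120, -87 and -54 from the start, and TTTGAA at -29. PLK1 held CCAAT at -73 and TTTGAA at -29, and ESPL1 held the reverse of CCAAT at -48 and TTTGAA at -31. SPC25 held CCAAT at -88 and -56 and TTTGAA at -247 and -3, while the MYBL2 window held neither set of letters. The 2 members at the ends of the range thus differed in these letters. CCNB2 and ESPL1 both held both sets. Their differences between the lines were -1.26 and -0.04 on the log2 scale. The part of these letters in the differences was not tested.

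Gene coordinates below are those of GENCODE 44 on GRCh38. Libraries held 33391640 to 43877224 counts, and every member had at least 453 counts in each library. Levels are given as CPM (counts scaled to library size, with TMM factors), differences as log2 fold change of EA.hy926 over HMEC-1 (log2FC, negative where EA.hy926 was lower) from edgeR's quasi-likelihood test, with its standard error (SE) and p adjusted by Benjamini-Hochberg over all genes tested. A gene passed both thresholds where the adjusted p was under 0.05 and log2FC was above 1 or below -1. Of 10 endothelial markers, all were detected in both lines, and their summed level was 4735 to 5395 CPM over EA.hy926 libraries against 1737 to 1788 CPM over those of HMEC-1. Of 10 epithelial markers, whose sum was 1275 to 1389 CPM over EA.hy926 libraries against 425 to 487 CPM over those of HMEC-1, the keratins KRT7, KRT8 and KRT18 made up most, while CDH1 and ESRP1, which define epithelial cells, were at or below 3 counts in every library. Past both thresholds KRT8 (log2FC = 4.83) and EPCAM (1.83) were higher in EA.hy926, and KRT19 (-4.71) and CLDN4 (-1.42) were lower. KRT8 stood at 526 to 577 CPM over EA.hy926 libraries. EPCAM, KRT19 and CLDN4 were scarce in both lines, with at most 1.11, 4.05 and 1.79 CPM in any library. The part of both marker lists in the results below was not tested.

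Mitotic transcripts were on balance lower in EA.hy926 than in HMEC-1, and the median log2FC was below 0 in each of the 10 roles. Of the 50 members, 20 were lower past both thresholds, against 16.4% of all genes tested, and 0 were higher past both, against 19.1%. By adjusted p alone, 48 members differed, against 85.8% of all genes tested: 46 members were lower, against 43.3% of all genes tested, 2 were higher (UBE2C and, except with libraries scaled to their totals, TPX2), against 42.6%, and 2 did not pass (BUB3 and ESPL1). The median log2FC of the members was -0.83, beside -0.01 for all genes tested, and the quartiles of the members were -1.19 and -0.44. In 46 members every EA.hy926 library lay below every HMEC-1 library, which held for 39.2% of all genes tested. In 2 members every EA.hy926 library lay above every HMEC-1 library, which held for 38.3%. Summed over the members, the level was 6694 to 7124 CPM in the 5 EA.hy926 libraries and 11403 to 11664 CPM in the 5 HMEC-1 libraries.

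**Figure D1:**
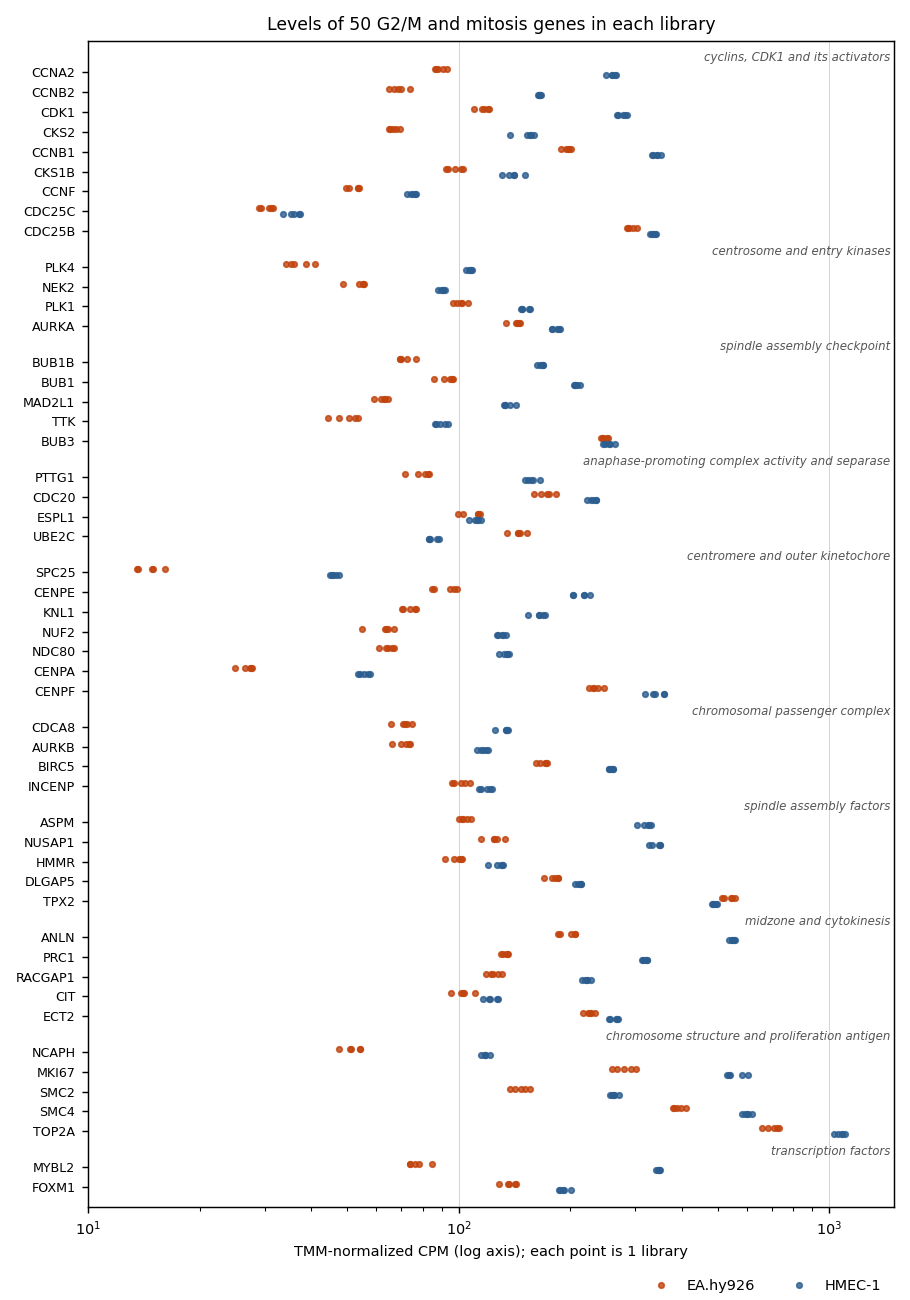
TMM-normalized CPM (log axis) of the 50 members in each of 5 EA.hy926 (orange) and 5 HMEC-1 (blue) libraries, grouped by role; each point is 1 library. The lines are apart for 48 members, with EA.hy926 lower for 46, and they overlap for BUB3 and ESPL1.

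**Figure D2:**
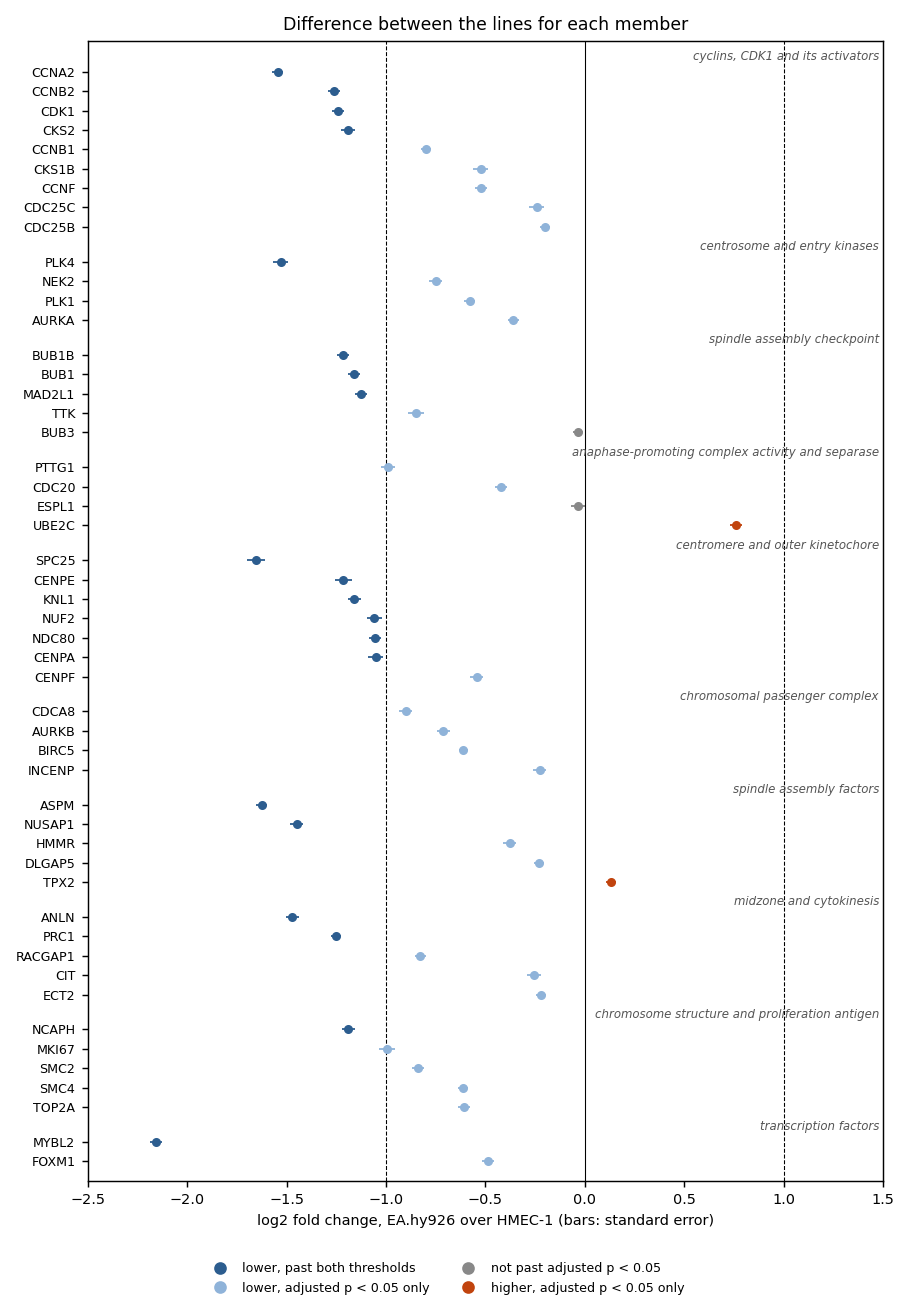
log2 fold change of EA.hy926 over HMEC-1 for the 50 members by role, with the SE as bars and dashed lines at -1 and 1. MYBL2 is lowest at -2.16, UBE2C highest at 0.76, and TPX2, at 0.13, falls to -0.0034 with libraries scaled to their totals.

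All 9 genes of the cyclin and CDK1 group were lower in EA.hy926, 4 of them past both thresholds, with a median log2FC of -0.80. CDK1 (ENSG00000170312, chr10:60778331-60794852), the kinase that drives mitotic entry, stood at 109.8, 117, 116, 121 and 120.2 CPM in EA.hy926 replicates 1 to 5, the order used for every gene below. In HMEC-1 it stood at 269, 285, 281, 268 and 277 CPM, above every EA.hy926 library (log2FC = -1.24, SE 0.029, adjusted p = 5.9e-20 by edgeR). Its S and G2 partner cyclin A2 (CCNA2) was at 86.4, 91.0, 86.8, 87.8 and 93.1 CPM in EA.hy926 and 259.8, 264, 265, 259 and 251 CPM in HMEC-1, and had the largest difference of the group (log2FC = -1.55, SE 0.028, adjusted p = 5.9e-22 by edgeR). The main mitotic cyclin, CCNB1, was at 188, 197, 195, 198 and 201 CPM in EA.hy926 and 336, 352, 343, 342 and 332 CPM in HMEC-1, a smaller difference that missed the fold threshold (log2FC = -0.80, SE 0.025, adjusted p = 1.2e-17 by edgeR). Its paralog CCNB2 passed both thresholds, at 67.1, 69.7, 64.8, 68.5 and 73.9 CPM in EA.hy926 and 165, 167, 166, 164 and 165 CPM in HMEC-1 (log2FC = -1.26, SE 0.030, adjusted p = 1.0e-19 by edgeR). Neither cyclin B gene overlapped between the lines. CKS2, a small subunit that binds CDK1, was likewise lower past both thresholds (log2FC = -1.19, SE 0.035), whereas its paralog CKS1B was lower by adjusted p only (-0.52, 0.036). CCNF, an F-box protein that bears a cyclin fold but does not act through a CDK, had a log2FC of -0.52. The smallest differences of the group were those of the CDK1-activating phosphatases CDC25B (log2FC = -0.20, SE 0.024) and CDC25C (-0.24, 0.039), which were still below HMEC-1 in every EA.hy926 library.

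All 4 centrosome and entry kinases were lower in EA.hy926, with PLK4 past both thresholds. PLK1, which acts from mitotic entry to cytokinesis, was at 98.8, 101, 96.7, 102 and 106 CPM in EA.hy926 and 156, 155, 148, 148 and 147 CPM in HMEC-1, without overlap (log2FC = -0.58, SE 0.029, adjusted p = 3.5e-14 by edgeR). PLK4, the kinase that starts centriole duplication, was at 34.2, 35.3, 41.1, 36.0 and 38.7 CPM in EA.hy926 and 105, 108, 109, 107 and 107 CPM in HMEC-1, with nearly 3 times the level in the latter (log2FC = -1.53, SE 0.038, adjusted p = 2.2e-19 by edgeR). NEK2, which separates the centrosomes, had a log2FC of -0.75, and the spindle pole kinase AURKA one of -0.36 (SE 0.028).

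The spindle assembly checkpoint split into 4 lower genes, 3 of them past both thresholds, and BUB3. BUB1, a kinase that recruits the checkpoint to kinetochores, was at 85.9, 91.3, 94.7, 95.8 and 96.9 CPM in EA.hy926 and 206, 205, 213, 209 and 206 CPM in HMEC-1, without overlap (log2FC = -1.16, SE 0.030, adjusted p = 4.1e-19 by edgeR). BUB1B, whose product BubR1 inhibits the anaphase-promoting complex, and MAD2L1, its partner in that inhibitor, had log2FC of -1.22 and -1.13. TTK, the kinase MPS1 at the top of the pathway, had a log2FC of -0.85 (SE 0.041). BUB3 (ENSG00000154473, chr10:123154402-123170467), a WD40 protein that carries BUB1 and BubR1 to kinetochores, was at 243, 246, 253, 252 and 246 CPM in EA.hy926 and 256, 264, 254, 248 and 245 CPM in HMEC-1. The lines overlapped, and the difference did not pass (log2FC = -0.03, 95% interval -0.08 to 0.02, edgeR adjusted p = 0.236). With libraries scaled to their totals BUB3 passed at log2FC -0.17, while the median of all genes tested moved from -0.01 to -0.15 under that scaling.

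The genes of anaphase onset were the most mixed of the 10 roles: none of 4 passed both thresholds, 2 were lower by adjusted p, 1 was higher and 1 did not pass. CDC20, the mitotic activator of the anaphase-promoting complex, was at 160.0, 167, 174, 183 and 175 CPM in EA.hy926 and 227, 235, 236, 231 and 222 CPM in HMEC-1, without overlap (log2FC = -0.42, SE 0.031, adjusted p = 4.5e-11 by edgeR). UBE2C (ENSG00000175063, chr20:45812576-45816957), the enzyme that hands ubiquitin to that complex, ran the other way. It was at 135, 145, 147, 144 and 153 CPM in EA.hy926 and at 87.7, 88.8, 83.0, 83.4 and 84.0 CPM in HMEC-1, so every EA.hy926 library lay above every HMEC-1 library (log2FC = 0.76, SE 0.032, adjusted p = 2.1e-15 by edgeR), a 1.69-fold difference that kept its direction under all scalings tried. PTTG1, the securin that holds separase inactive, was at 71.5, 82.9, 77.5, 81.0 and 83.2 CPM in EA.hy926 and 159, 166, 154, 151 and 157 CPM in HMEC-1, just short of the fold threshold (log2FC = -0.99, SE 0.037, adjusted p = 2.7e-16 by edgeR), and its counts are uncertain because near-identical copies lie elsewhere in the genome. Separase itself, ESPL1 (ENSG00000135476, chr12:53268299-53293638), was at 99.8, 103, 113, 113 and 114 CPM in EA.hy926 and 115, 106, 111, 112 and 112 CPM in HMEC-1. These ranges overlapped and the difference did not pass (log2FC = -0.04, 95% interval -0.11 to 0.04, edgeR adjusted p = 0.363), although it passed at -0.17 with libraries scaled to their totals.

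The kinetochore had the highest count past both thresholds among the roles, 6 of 7 genes, with all 7 lower and a median log2FC of -1.06. CENPA, the histone H3 variant that marks centromeres, was at 24.9, 27.4, 26.5, 27.4 and 27.7 CPM in EA.hy926 and 57.6, 55.5, 57.0, 53.5 and 54.1 CPM in HMEC-1, without overlap (log2FC = -1.05, SE 0.037, adjusted p = 6.9e-17 by edgeR). The 3 members that belong to the NDC80 complex, which grips microtubules, did not differ alike. NDC80 and NUF2 had log2FC of -1.05 (SE 0.030) and -1.06 (0.039), and SPC25 (ENSG00000152253) was lower still. SPC25 was at 14.9, 13.6, 13.6, 16.1 and 14.9 CPM in EA.hy926 and 45.7, 46.6, 47.5, 45.5 and 45.0 CPM in HMEC-1, without overlap (log2FC = -1.65, SE 0.044, adjusted p = 6.3e-19 by edgeR). KNL1, the scaffold for BUB1, had a log2FC of -1.16 and the kinesin CENPE one of -1.21. CENPF, a large protein of the fibrous corona, was lower by adjusted p only (log2FC = -0.54, SE 0.032).

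None of the 4 genes of the chromosomal passenger complex passed both thresholds, and all 4 were lower by adjusted p. AURKB, the kinase that corrects wrong attachments, was at 66.0, 73.9, 70.0, 73.5 and 72.3 CPM in EA.hy926 and 116, 120.1, 115, 119 and 112 CPM in HMEC-1, without overlap (log2FC = -0.71, SE 0.032, adjusted p = 6.1e-15 by edgeR). Its partners CDCA8 (borealin) and BIRC5 (survivin) had log2FC of -0.90 and -0.61. INCENP, the scaffold that joins them to the kinase, had the smallest difference (log2FC = -0.23, SE 0.033).

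Spindle factors ranged from among the lowest members to TPX2. ASPM (ENSG00000066279, chr1:197084121-197146694), which focuses microtubules at spindle poles, was at 100.1, 102, 108, 106 and 103 CPM in EA.hy926 and 325, 303, 317, 329.9 and 326 CPM in HMEC-1, about 3 times higher in the latter (log2FC = -1.63, SE 0.029, adjusted p = 4.9e-22 by edgeR). NUSAP1, which bundles microtubules near chromosomes, had a log2FC of -1.45, but 86.8% of its exon length is shared with another annotated gene, so its counts are uncertain. HMMR and DLGAP5, which assemble and stabilize spindle fibres, had log2FC of -0.38 and -0.23. TPX2 (ENSG00000088325, chr20:31739271-31801805), which activates AURKA on the spindle, was at 514, 521, 546, 543 and 556 CPM in EA.hy926 and 483, 485, 494, 497 and 489 CPM in HMEC-1. Each EA.hy926 library lay above each HMEC-1 library (log2FC = 0.13, SE 0.025, adjusted p = 5.6e-05 by edgeR), but the log2FC was -0.0034 (adjusted p = 0.907) with libraries scaled to their totals, so the direction depends on the scaling.

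All 5 genes of the midzone and cytokinesis were lower, 2 past both thresholds. PRC1, which crosslinks microtubules of the midzone, was at 130.1, 132, 135, 135 and 136 CPM in EA.hy926 and 312, 323, 315, 319 and 323 CPM in HMEC-1 (log2FC = -1.25, SE 0.024, adjusted p = 1.8e-21 by edgeR), with 61.9% of its exon length shared with another annotated gene. ANLN, the anillin that scaffolds the contractile ring, was at 185, 187, 207, 206 and 202 CPM in EA.hy926 and 546, 535, 545, 554 and 556 CPM in HMEC-1 (log2FC = -1.47, SE 0.031, adjusted p = 9.6e-21 by edgeR). Neither gene overlapped between the lines. RACGAP1, a subunit of centralspindlin, had a log2FC of -0.83. The RhoA activator ECT2 that it recruits had one of -0.22 and citron kinase, CIT, one of -0.26, with SE of 0.026 and 0.035.

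Among 5 genes of chromosome structure all were lower, and NCAPH passed both thresholds. TOP2A, the topoisomerase that untangles sister chromatids, was at 657, 685, 724, 733 and 710.1 CPM in EA.hy926 and 1029, 1055, 1080.1, 1105 and 1083 CPM in HMEC-1, without overlap (log2FC = -0.61, SE 0.029, adjusted p = 2.4e-14 by edgeR). MKI67, the gene of the proliferation antigen Ki-67, was at 293, 268, 301, 260.0 and 279 CPM in EA.hy926 and 541, 531, 538, 604 and 583 CPM in HMEC-1, a gap just short of the fold threshold (log2FC = -0.997, SE 0.040, adjusted p = 9.9e-16 by edgeR). Of the condensin I subunits, NCAPH had a log2FC of -1.19, while SMC2 and SMC4, which condensin II shares, had -0.84 and -0.61. The members nearest to the fold threshold were CENPA (-1.05), NDC80 (-1.05) and NUF2 (-1.06) inside it and MKI67 (-0.997), PTTG1 (-0.99) and CDCA8 (-0.90) outside it.

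The 2 transcription factors that act on these genes differed between the lines to unequal degrees. MYBL2 (ENSG00000101057, chr20:43667019-43716495), the B-Myb subunit of the MYB-MuvB complex, was at 73.9, 73.9, 78.2, 76.4 and 84.6 CPM in EA.hy926 and 342, 347, 346, 344 and 349 CPM in HMEC-1, a 4.46-fold higher mean in HMEC-1. It had the lowest log2FC of all members (log2FC = -2.16, SE 0.032, adjusted p = 2.7e-23 by edgeR). FOXM1, the forkhead factor that joins that complex in G2, was at 136, 137, 143, 128 and 142 CPM in EA.hy926 and 192, 187, 188, 193 and 201 CPM in HMEC-1, also without overlap (log2FC = -0.49, SE 0.030, adjusted p = 2.2e-12 by edgeR).

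Per kilobase of exon, the members' levels also took a different order in the lines. TPX2 had the highest level in EA.hy926, at 149 RPKM (CPM per kilobase of exon), and CKS2 the highest in HMEC-1, at 248 RPKM. CIT had the lowest in both, at 3.59 RPKM in EA.hy926 and 4.29 RPKM in HMEC-1. The length used joins all annotated exons of a gene, 28605 bases for CIT, so the order between genes depends on it. By CPM, CIT averaged 103 in EA.hy926 and 123 in HMEC-1. UBE2C moved from rank 2 of 50 in EA.hy926 to rank 15 in HMEC-1, and MYBL2 from rank 22 to rank 5.

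Ratios of 2 members within a library do not depend on how libraries are scaled, so 21 pairs of paralogs or direct partners were compared by a two-sided exact permutation test over the 10 libraries, whose smallest possible p is 0.00794. The pairs were chosen by relation after the members' values were seen, and the ratios restate those values. Their p-values are therefore descriptive and add no separate evidence. Ratios are of counts per exon length, and 18 of 21 differed with an adjusted p under 0.05. No share over other pairs of genes was computed, and 85.8% of all genes tested differed between the lines by adjusted p. Whether the count is particular to paralogs or partners was therefore not tested. MYBL2 over FOXM1 ranged from 0.958 to 1.06 over EA.hy926 libraries and from 3.08 to 3.29 over HMEC-1 libraries, the largest difference (exact p = 0.00794, adjusted p = 0.0098). BUB1 over BUB3 was 0.459 to 0.511 and 1.01 to 1.09 in the same order, and PLK4 over PLK1 0.368 to 0.451 and 0.715 to 0.781. Both ratios were thus about 2 times higher in HMEC-1. UBE2C over CDC20, the enzyme and the activator of the same complex, ran the other way, at 1.24 to 1.37 against 0.551 to 0.603. ESPL1 over its inhibitor PTTG1 was 0.275 to 0.323 against 0.143 to 0.165, and all 4 of these pairs had the same smallest p. Cyclins split as well: CCNB1 over CDK1 averaged 2.70 in EA.hy926 and 1.99 in HMEC-1, while CCNB2 over CCNB1 averaged 0.310 and 0.428. SPC25 over NDC80 averaged 0.441 and 0.670 in that order, and RACGAP1 over ECT2 0.677 and 1.03.

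Pairs whose ratio did not pass were NUF2 over NDC80, with means of 1.03 in both lines (exact permutation p = 0.881, adjusted p = 0.881), CDC25C over CDC25B, with 0.122 in EA.hy926 and 0.125 in HMEC-1 (exact p = 0.381, adjusted p = 0.400), and BUB1B over BUB1, with 1.09 and 1.13 (exact p = 0.0714, adjusted p = 0.0789). The differences of the log2 ratio, EA.hy926 less HMEC-1, were -0.01 (SE 0.043), -0.04 (0.041) and -0.06 (0.030). Within the passenger complex, BIRC5 over AURKB differed by 1.07-fold (exact p = 0.0159, adjusted p = 0.0185), and INCENP over AURKB by 1.40-fold.

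**Figure D3:**
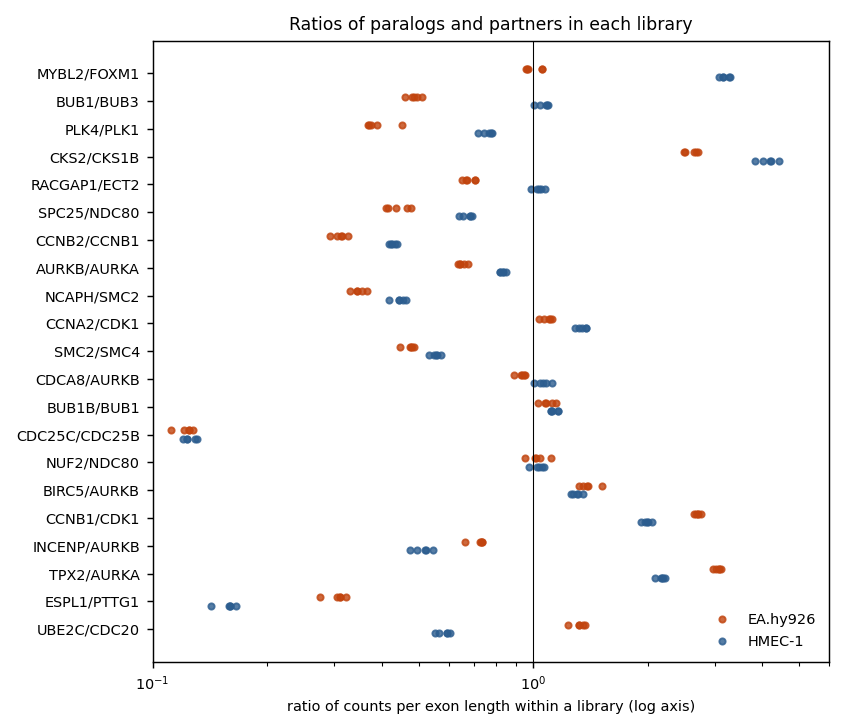
Ratio of counts per exon length of 21 pairs of members within each library (log axis), with 5 EA.hy926 (orange) and 5 HMEC-1 (blue) points a pair, ordered by the difference between the lines. MYBL2 over FOXM1 is near 1 in EA.hy926 and above 3 in HMEC-1, and UBE2C over CDC20 is higher in EA.hy926. Where a ratio lies relative to 1 depends on the exon lengths used, and the fold between the lines does not.

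The members lie on 17 chromosomes, and EA.hy926 over HMEC-1 differed between chromosomes as a whole. Of the 5 members on chromosome 20, UBE2C and, except with libraries scaled to their totals, TPX2 were higher, CDC25B and AURKA were lower by adjusted p, and MYBL2 was the lowest of all. The median log2FC of the 428 genes tested on chromosome 20 was 0.79, the highest of the chromosomes with members, followed by 0.41 on chromosome 12, where ESPL1, FOXM1, CIT and RACGAP1 lie. Against the median of its own chromosome, UBE2C stood at -0.03, TPX2 at -0.66, ESPL1 at -0.44 and MYBL2 at -2.95 on the log2 scale. In all, 49 of 50 members lay below the median of their chromosome, with BUB3 on chromosome 10 above it by 0.17, and 17 members lay more than 1 below it. The share of all genes tested that lay more than 1 below their chromosome's median was not computed. The part of gene copy number in these values was not tested.

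**Figure D4:**
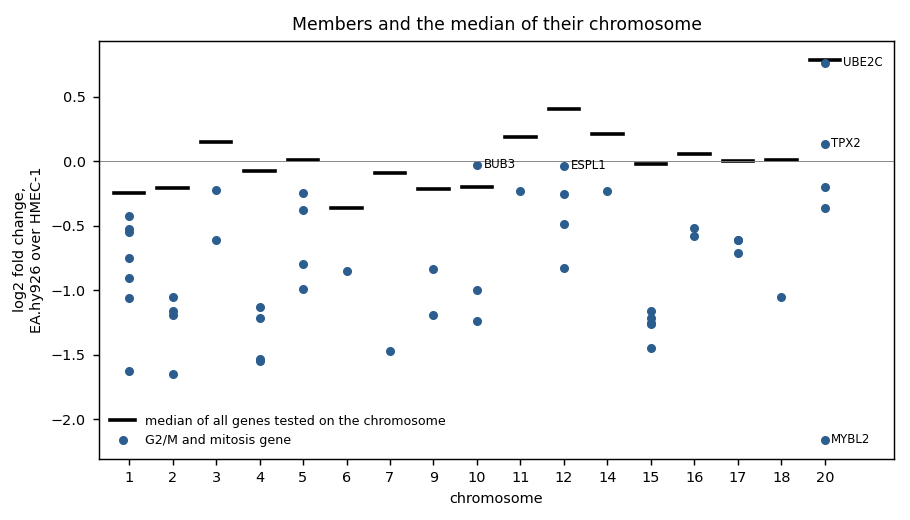
log2 fold change of EA.hy926 over HMEC-1 for each member (points) on its chromosome, with the median of all genes tested on that chromosome as a black bar. On chromosome 20 the median is 0.79 and UBE2C lies at it, TPX2 below it (near 0, and at -0.0034 with libraries scaled to their totals) and MYBL2 far below; BUB3 is the only member above its chromosome's median.

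Promoters showed what the members shared beyond their names. Of the 50 members, 41 had a promoter in the RefSeq table, and UBE2C, TTK, AURKA, KNL1, BIRC5, RACGAP1, TPX2, BUB3 and FOXM1 had none there. TTTGAA, searched on both strands, was in 30 of 41 windows, 73.2% (95% Wilson interval 58.1 to 84.3), against 15.4% of all 27305 promoters of the same length and 10.0% of the 11378 promoters of genes tested. CCAAT, which does not overlap TTTGAA in its letters, was also in 73.2% of the members' windows, against 35.7% of all promoters. Between 50 bases before and 50 after the start, TTTGAA began in 24 of 41 member windows, 58.5%, against 2.80% for genes tested. CCAAT was most frequent between 75 and 50 bases before the start, in 48.8% of member windows against 10.2%. The related letters TTCGAA were in 3 of 41, 7.32%, against 1.45% of all promoters, and the E2F-like letters TTTCGCG or TTTGGCG in 3 of 41 as well, against 3.22%. A match is a description of letters, not a bound site, and the intervals cover the count of promoters only.

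**Figure D5:**
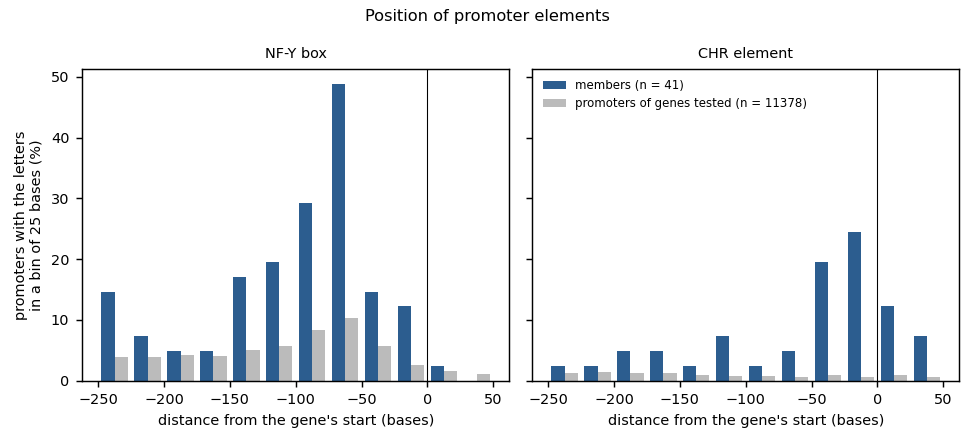
Share of promoters whose CCAAT letters (NF-Y box, left) or TTTGAA letters (CHR element, right) begin in each bin of 25 bases, by distance from the listed start, for 41 member promoters (blue) and 11378 promoters of genes tested (grey). The CCAAT share peaks at 48.8% between 75 and 50 bases before the start, and the CHR share at 24.4% just before the start.

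Members past both thresholds and the other members held TTTGAA in close to equal shares. TTTGAA was in 14 of 19 windows (73.7%) of members past both thresholds and in 16 of 22 (72.7%) of the others. CCAAT was in 12 of 19 (63.2%) and 18 of 22 (81.8%). It occurred at least 2 times in 7 of 19 (36.8%) and 15 of 22 (68.2%), so repeats were more frequent among the others. The median log2FC was -1.02 for the 24 members with TTTGAA within 50 bases of the start and -0.80 for the 17 without. For the 18 members with TTTGAA at that place that also held CCAAT it was -0.74, nearer to 0 than without TTTGAA. Among genes tested that are no member, those with TTTGAA at that place had a median of -0.23 over 295 genes, beside -0.03 over the 11042 without, and 20.3% of them were lower past both thresholds, beside 15.7%. The shares higher past both thresholds were 17.3% and 17.0%. These are shares and medians with no test.

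Among genes of the same machinery outside the 50 members, each list had more genes lower than higher in EA.hy926, by unequal margins. Of 33 other centromere and kinetochore genes, 12 were lower past both thresholds (36.4%, beside 16.4% of all genes tested) and 0 higher, with 31 lower by adjusted p and a median log2FC of -0.90. The extremes were OIP5 (-2.16), a CENPA-loading factor, and CENPU (-1.63) at the low end and DSN1 (0.31) and CENPI (-0.05) at the high end. Of 15 other condensin and cohesin genes, 4 were lower past both thresholds (26.7%) and 0 higher (median -0.65), from NCAPD3 (-1.33) and PDS5B (-1.30) to STAG2 (0.38), a cohesin subunit, and NCAPD2 (0.02).

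Regulators of mitotic entry outside the members had 3 of 14 genes lower past both thresholds (21.4%, near the 16.4% of all genes tested) and 0 higher, with a median log2FC of -0.49. CDC25A (-1.52), a phosphatase for CDK1 and CDK2, and the Greatwall kinase MASTL (-1.22) were lowest, and CDK7 (0.66) and MNAT1 (0.28), subunits of the CDK-activating kinase, were highest. Of 17 other subunits, activators and inhibitors of the anaphase-promoting complex, 1 was lower past both thresholds (5.88%, below the share of all genes tested) and 0 higher, with 11 lower and 6 higher by adjusted p and a median of -0.28. FBXO5 (-1.16), the inhibitor EMI1, and the subunit CDC16 (-0.87) were lowest, and ANAPC2 (0.69) and ANAPC13 (0.52) were highest. In that complex the core subunits thus lay on both sides of 0.

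Components of DREAM and MYB-MuvB, the complexes that bind CHR promoters, had 3 of 12 genes lower past both thresholds (25%, beside 16.4% of all genes tested) and 0 higher, with 8 lower and 1 higher by adjusted p (median log2FC -0.52). TFDP1 (-1.64), the partner of E2F factors, and LIN54 (-1.06), the subunit that contacts the CHR, were lowest. E2F4 (0.33) and E2F5 (0.12) were highest. E2F5 did not pass (adjusted p = 0.652 from edgeR) and was scarce, with at most 0.83 CPM in any library. Of 36 genes of G1/S and DNA replication, 13 were lower past both thresholds (36.1%) and 1, CCNE1, was higher, with 31 lower and 4 higher by adjusted p and a median of -0.79. The extremes were CCNE2 (-1.96) and RFC3 (-1.88) at the low end and CCNE1 (1.28) and UNG (0.59) at the high end. The cyclin E paralogs CCNE1 and CCNE2 therefore differed between the lines in opposite directions. The median of this earlier stage of the cycle, -0.79, stood beside -0.83 for the G2/M and mitosis genes, with no test between them.

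Members varied little among replicates, with a median coefficient of variation of 4.35% in EA.hy926 and 2.62% in HMEC-1. EA.hy926 replicate 1 had 45 of 50 members below the mean of its line, with a median deviation of -0.072 on the log2 scale. The other EA.hy926 libraries had medians of -0.017 to 0.041, and the HMEC-1 libraries -0.015 to 0.0094. This deviation is small beside the members' median log2FC of -0.83, which was -0.80 without that library. In that fit 21 members were lower past both thresholds, beside 16.8% of all genes tested.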

How the data were processed

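RNA from 5 cultures each of EA.hy926 and HMEC-1 was enriched for poly(A) transcripts and sequenced on a Illumina NovaSeq system. Raw read counts per gene, as deposited by the authors, were made from HISAT2 alignments to GRCh38, with fastp and featureCounts in the submitters' processing notes and HTSeq in the study's methods. The annotation release and strand setting are not given in the sources used here. Gene names and exon lengths came from GENCODE 44, which matched 56434 of 60448 identifiers. Counts were tested with edgeR 4.0.16 in R 4.3.3 (TMM factors, filterByExpr, quasi-likelihood test), with DESeq2 1.42.0, limma 3.58.1 (voom), other scalings and filters, a replicate block and leave-one-out fits as alternatives, after the scripts were tested on simulated data. Replicates of a line differed by 3.01 to 7.46 in chi-square per degree of freedom, so none was counted as a duplicate. Exons of 15 members are shared in part with another annotated gene, by over 20% for NUSAP1, PRC1 and SMC4, and CKS1B and PTTG1 have near-identical copies. The members and the gene lists were chosen with earlier results of these data known, and library values are given for the extremes, the first gene of each role, those that did not pass and others central to their role. Promoters are from RefSeq. Reads carried no stated molecular identifiers.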

Additional observations from a re-analysis of the deposited data

Results flagged for a closer look

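Among 100 sets of 5 libraries (50 members in 2 lines), 3 held a library apart from the other 4 by Dixon's criterion, which by chance marks about 1 set in 20. NEK2, the centrosome kinase, stood at 48.6 CPM in EA.hy926 replicate 1 and at 53.9 to 55.5 CPM in the other EA.hy926 libraries. NUF2, of the NDC80 complex, stood at 54.7 CPM in the same library and at 63.4 to 66.8 CPM in the others. CDCA8, the passenger protein borealin, stood at 126 CPM in HMEC-1 replicate 1 and at 134 to 136 CPM in the other HMEC-1 libraries. All of these values left EA.hy926 below HMEC-1 for the gene concerned. Their source was not tested.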

How the results depend on the processing

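Between 20 and 23 members were lower past both thresholds, and 0 higher, with DESeq2, limma-voom and every scaling, filter and left-out library tried. A test against a log2FC of 1 (glmTreat) left 18, and 17 lay more than 1 below the median of their chromosome, an alternative chosen after seeing the data. Over the fits that gave 20 to 23, the share of all genes tested that was lower past both thresholds varied. It ran from 10.7% (at least 10 counts in every library) to 18.9% (library totals). No such share is given beside the 18, the 17 or the 0 higher. Scaling to library totals moved the median of all genes from -0.01 to -0.15. The members' median then became -0.97, TPX2 turned to -0.0034, and only 1 member was higher by adjusted p. It also gave 2 of 17 other anaphase-promoting complex genes and 19 of 33 other centromere and kinetochore genes as lower past both thresholds. The share of all genes tested was 18.9% in that fit. Scaling to totals also turned the median deviation of HMEC-1 replicate 2 to -0.0050, and the cause was not tested. Leaving out each library in turn gave 20 to 22 lower members and a median of -0.85 to -0.80. MKI67, PTTG1 or, with library totals, CDCA8 passed the fold threshold in 14 comparisons of a gene and a setting. The replicate block gave counts of 20 lower and 0 higher past both thresholds, with a median of -0.83; same-numbered libraries correlated by -0.02 to 0.04, so the numbers do not pair them. With every listed start, TTTGAA was in 61.8% of member promoters, also chosen after seeing the data, and with 100 bases before the start in 65.9%. The planned search of protein letters was not run, since no protein table was used here.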
